A study of Mus musculus with 8 samples.

Results

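The genes that copy DNA were followed in mouse epidermis after topical glucocorticoid treatment. The set held 43 genes: subunits and activators of the replicative helicase, origin licensing factors, DNA polymerases and primase, the sliding clamp and its loader, the single-strand binding complex RPA, the nuclease and ligase that finish Okazaki fragments, and 4 enzymes that supply deoxynucleotides. They were chosen by gene name, from 50 listed names of which 7 were older aliases, with earlier results of these data known. The names alone set the list, and measured detection then decided which genes were tested. On the array, 40 of the 43 genes were named, by 62 of 25697 probes. A detection p under 0.05 on at least 2 of 8 arrays was required for a test, and 36 genes passed with 46 probes, out of 13131 tested probes that name 9343 genes. Gins1, Gins2 and Rfc3 were named by no probe, and Orc1, Orc2, Pola1 and Pole2 were named but had no tested probe.

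The transcripts of 4 groups of mice were read from epidermal RNA with Illumina BeadChips (MouseRef-8 v2.0), of which there were 8, or 2 per group. RNA of individual animals was hybridised, according to the study. Fluocinolone acetonide (FA), a synthetic glucocorticoid, was applied once to the skin at 2 µg in 200 µl acetone per animal, and vehicle animals received acetone alone according to the methods, whereas the labels call these animals untreated. The groups were wild-type FA, wild-type vehicle, REDD1 KO FA and REDD1 KO vehicle, all of them 7-week-old females in telogen (the resting phase of the hair cycle) that had been shaved 3 days before treatment and given bromodeoxyuridine shortly before epidermis was taken at 24 h. REDD1 is the product of Ddit4, an inhibitor of mTORC1 that glucocorticoids induce. In REDD1 KO mice exon 2 of the gene had been replaced in the germ line by a LacZ/neo cassette, so that the gene was changed in every cell and not in epidermis alone. The labels give the strain of all animals as B6D2 and the tissue as epidermis from the posterior ear lobe, whereas the methods give B6x129 for the REDD1 KO mice and their wild-type controls and the back as the treated skin. The comparisons ask whether FA changed the level of replication gene transcripts in each genotype, and whether loss of REDD1 changed these levels or the size of the FA effect.

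Before a cell divides, the origin recognition complex (Orc1 to Orc6), Cdc6 and Cdt1 load rings of Mcm2 to Mcm7 onto origins of replication, and in S phase Cdc45 and GINS turn these rings into active helicases. Polymerase alpha and primase then start each strand, polymerases delta and epsilon extend it with the clamp PCNA, and Fen1 and Lig1 join the fragments of the lagging strand. Many of these genes are transcribed under E2F factors as cells pass from G1 into S phase, and in interfollicular epidermis dividing cells lie mainly in the basal layer.

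Because many members moved together, their promoters were searched for the words TTTGGCGC, TTTCCCGC, TTTGCCGC and TTTCGCGC, which resemble the E2F site. RefSeq windows of 300 bases (build GRCm38.p6, from 250 bases before to 50 bases after the transcription start) were held for 36 of the 43 members, and both strands were read. At least 1 of these words stood in a window of 14 of 36 members (38.9%), against 704 of all 27025 genes in the table (2.6%). Among members with both a window and a test, a word was present in 5 of 15 that fell with FA in the mean of both genotypes (33.3%) and in 5 of 16 that did not pass that test (31.2%). The word CCAAT was found in 23 of 36 members (63.9%), against 41.1% of all genes, and the cell cycle word TTTGAA in 5 of 36 (13.9%), against 20.2% of all genes. The full glucocorticoid receptor palindrome was in no member window and in 3 of 27025 genes. The windows below set genes that fell with FA (Mcm5, Mcm6 and Pold1) beside Cdc6, which did not pass. Capitals mark the E2F-like words on either strand, and where 2 words overlap they form 1 run of capitals. A match is a match of letters and does not show that a factor binds there.
Mcm5, chr8:75109259-75109558, plus strand: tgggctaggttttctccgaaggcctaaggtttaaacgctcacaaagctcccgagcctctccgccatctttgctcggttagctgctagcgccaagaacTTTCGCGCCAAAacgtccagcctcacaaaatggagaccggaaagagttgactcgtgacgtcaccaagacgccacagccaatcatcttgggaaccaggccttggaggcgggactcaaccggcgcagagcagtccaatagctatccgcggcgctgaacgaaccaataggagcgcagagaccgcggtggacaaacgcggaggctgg
Mcm6, chr1:128359656-128359955, minus strand: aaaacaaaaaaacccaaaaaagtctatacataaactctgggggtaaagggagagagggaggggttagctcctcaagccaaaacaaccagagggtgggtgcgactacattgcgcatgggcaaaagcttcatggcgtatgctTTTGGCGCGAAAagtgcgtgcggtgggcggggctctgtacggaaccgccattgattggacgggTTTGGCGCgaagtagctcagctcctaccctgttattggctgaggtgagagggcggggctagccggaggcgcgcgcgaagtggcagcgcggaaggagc
Pold1, chr7:44548766-44549065, minus strand: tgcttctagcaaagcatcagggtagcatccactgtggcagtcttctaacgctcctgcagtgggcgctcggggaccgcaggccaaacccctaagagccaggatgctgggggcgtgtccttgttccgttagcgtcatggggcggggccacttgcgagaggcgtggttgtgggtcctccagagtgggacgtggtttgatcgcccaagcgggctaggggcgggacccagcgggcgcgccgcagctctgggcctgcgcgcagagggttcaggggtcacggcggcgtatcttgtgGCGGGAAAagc
Cdc6, chr11:98907901-98908200, plus strand: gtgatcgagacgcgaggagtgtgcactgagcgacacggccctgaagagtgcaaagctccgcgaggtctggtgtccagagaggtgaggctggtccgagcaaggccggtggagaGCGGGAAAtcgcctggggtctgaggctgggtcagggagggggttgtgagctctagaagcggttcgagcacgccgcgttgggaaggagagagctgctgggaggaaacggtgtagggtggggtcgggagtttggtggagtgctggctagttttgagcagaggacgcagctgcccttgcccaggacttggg

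On each array 44.5% to 46.7% of the probes were detected, and the 2 arrays of a group correlated at 0.976 to 0.99 over all tested probes. The Ddit4 probe read 7.88 and 8.35 on the REDD1 KO FA arrays, against 10.98 and 11.14 on the wild-type FA arrays, and 7.09 and 7.42 on the REDD1 KO vehicle arrays, against 9.16 and 10.08 on the wild-type vehicle arrays (log2 scale). The position of this probe relative to the replaced exon was not analysed here. Epidermal markers were present on every array: the 7 basal keratinocyte markers averaged 11.69 to 12.06 on the log2 scale, and none of the 7 passed the test with FA in either genotype. Of 5 tested differentiated keratinocyte markers 1 was called higher with FA in wild-type mice (all tested probes: 3.18%). In REDD1 KO mice 1 was called lower (2.34%) and 1 higher (2.17%). Over 4 tested hair follicle markers the mean was 4.95 and 5.67 in REDD1 KO FA, and 4.53 to 4.77 elsewhere. Under FA 2 of the 4 were called higher in REDD1 KO than in wild-type mice, against 7.16% of all tested probes in either direction. Skeletal muscle transcripts set 1 library apart, with a mean over 7 markers of 10.87 on REDD1 KO FA array 1 and 4.83 to 7.76 on the other 7 arrays. Immune markers moved with FA. The mean over 4 tested Langerhans and myeloid markers was 7.52 and 7.84 in wild-type FA, against 8.98 and 9.41 in wild-type vehicle, and 6.79 and 7.89 in REDD1 KO FA, against 9.43 and 9.52 in REDD1 KO vehicle, with 3 of the 4 called lower over both genotypes. For 6 tested T cell markers the mean was 6.10 and 6.27 in wild-type FA, against 6.64 and 7.29 in wild-type vehicle, and 5.35 and 6.08 in REDD1 KO FA, against 6.61 and 6.85 in REDD1 KO vehicle, with 4 of the 6 called lower. Over both genotypes 6.98% of all tested probes were called lower. Of the defining markers, Itgax and Cd7 were not detected on enough arrays to be tested. The part of these shifts in the results below was not tested, and in whole epidermis fewer dividing cells and less RNA per cell cannot be told apart.

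With FA, replication genes were called lower in both genotypes, fewer of them in REDD1 KO mice, and none was called higher. In wild-type epidermis 14 of 36 tested members were called lower (adjusted p under 0.05 in limma), against 3.17% of all tested probes, and none was called higher, against 3.18% of all tested probes. In REDD1 KO epidermis 6 of 36 were called lower, against 2.34% of all tested probes, and none higher, against 2.17% of all tested probes. With the FA effects of both genotypes averaged, which sets 4 FA arrays against 4 vehicle arrays, 18 of 36 were called lower, against 6.98% of all tested probes, and none higher, against 6.11%. For 20 of 36 members all 4 FA arrays lay below all 4 vehicle arrays, which held for 8.26% of all tested probes. The median log2 difference of the 36 members was -0.69 in wild-type and -0.43 in REDD1 KO mice (-0.63 and -0.38 with members undetected in a whole group set to their bound), beside -0.02 and -0.0012 over all tested probes. Mcm3, Mcm7, Mcm10, Pole and Tk1 were detected on vehicle arrays alone, so they met the detection filter only through the group where they were higher. The calls among them (Tk1 in each count, Mcm10 and Pole in the count of 18) are no support for a fall of the set. Nor is the place of Mcm10, Pole and Tk1 in the count of 20 or, where they enter, in the percentile counts below. The same holds for all of these genes in the medians. The fold size ranged widely among members, with log2 differences of -2.43 to 0.30 in wild-type mice and -2.15 to 0.77 in REDD1 KO mice, and 18 and 12 members lay under the 5th percentile of all tested probes in the same comparison. Median centring of the arrays, in place of quantile normalization, turned the all-probe calls in wild-type mice into 446 lower and 265 higher, beside 416 and 417, and those in REDD1 KO mice into 430 lower and 197 higher, beside 307 and 285. It moved the median of all probes in REDD1 KO mice to -0.10, with the members' median at -0.54.

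**Figure D1:**
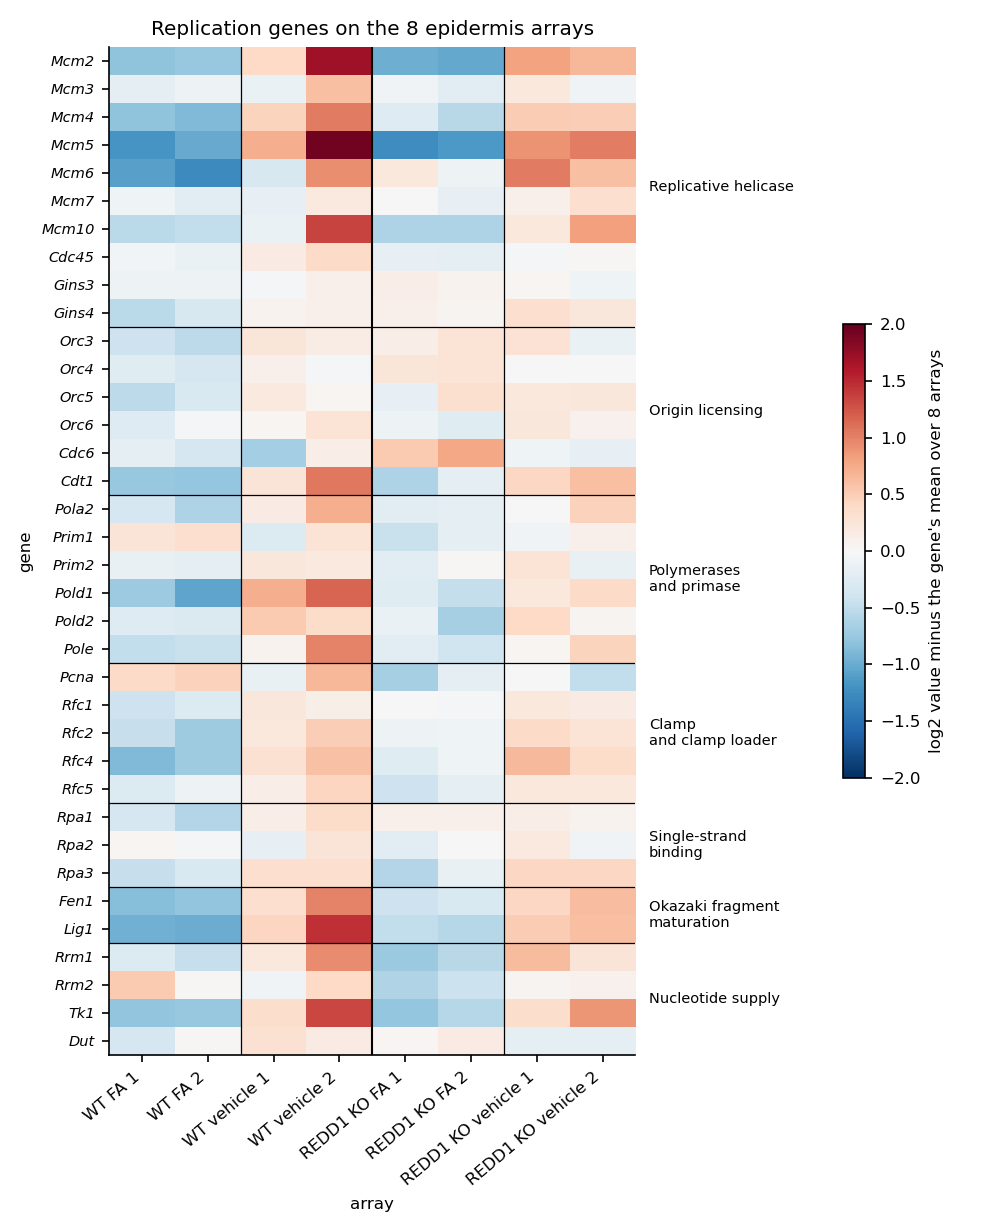
Log2 values of the 36 tested replication genes (rows, by role) on the 8 arrays (columns), each shown as the difference from the gene's own mean over all arrays on a colour scale in log2 units. The FA columns are mostly blue and the vehicle columns mostly red in both genotypes, with Mcm5, Mcm2 and Lig1 darkest on wild-type vehicle array 2.

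**Figure D2:**
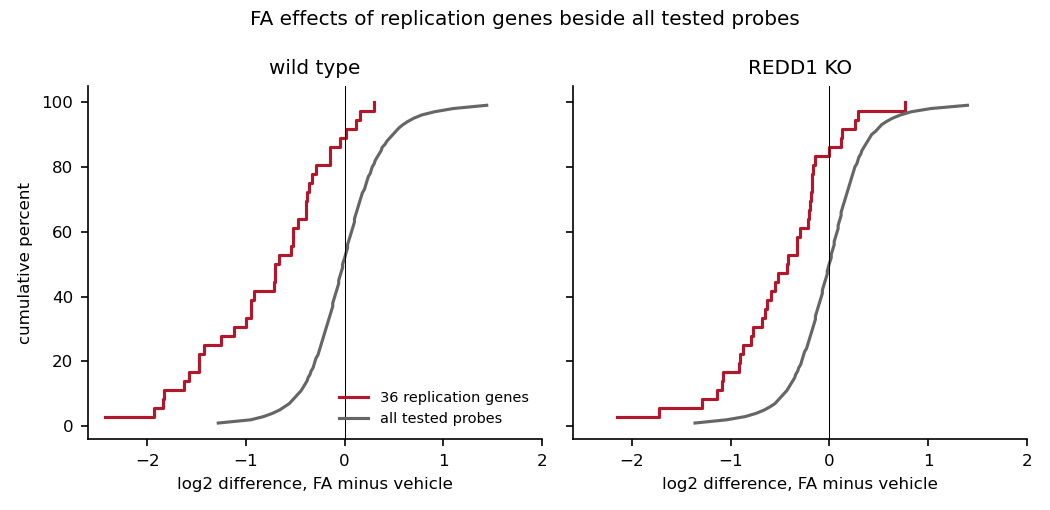
Cumulative percent (vertical axis) of the log2 difference of FA minus vehicle (horizontal axis) for the 36 replication genes and for all tested probes, in wild-type and REDD1 KO mice. The members' curve lies to the left of that of all probes, with medians of -0.69 and -0.43, and meets it in REDD1 KO mice only at the upper end, where Cdc6 stands at 0.77.

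The counts in single genotypes leaned on single arrays. Wild-type vehicle array 2 stood above array 1 for 29 of 36 members, by a median of 0.43 log2 units, whereas 50.2% of all tested probes were higher on array 2. Without that array 7 members were called lower in wild-type mice and the members' median was -0.58, and without wild-type FA array 1 or 2, where the remaining FA array is assumed to vary like the other groups, 3 were called (Mcm5 and Pold1 each time, with Mcm4 or Rfc4). The REDD1 KO count was 1 or 0 without REDD1 KO vehicle array 1 or 2, 1 or 2 without REDD1 KO FA array 1 (the array high in muscle transcripts) or 2, and 1 without wild-type FA array 1 or 2, which enter through the shared estimate of the spread, while the members' median stayed between -0.43 and -0.41. Mcm5 was the one REDD1 KO call that held in all of these but the fit without REDD1 KO vehicle array 2. In wild-type mice Mcm6, Pola2, Rpa1 and Rpa3 also lost their call without either REDD1 KO vehicle array, and Tk1 lost it without wild-type vehicle array 2. The count over both genotypes was 12 to 17 lower with any 1 of the 8 arrays left out, and without wild-type vehicle array 2 Cdc6 was also called higher (0.59, adjusted p = 0.0256).

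Of 10 tested helicase members, 4 fell in wild-type mice (Mcm2, Mcm4, Mcm5 and Mcm6), 3 in REDD1 KO mice (Mcm2, Mcm4 and Mcm5) and 5 over both genotypes (these 4 and Mcm10). Of all tested probes 3.17%, 2.34% and 6.98% were called lower in these comparisons. Mcm10 met the detection filter only through vehicle arrays, so its call is no support for a fall of the helicase genes. Mcm5, a subunit of the ring that unwinds DNA, read 5.53 and 5.70 in wild-type FA, against 7.44 and 8.64 in wild-type vehicle, and 5.47 and 5.56 in REDD1 KO FA, against 7.60 and 7.73 in REDD1 KO vehicle (log2 values, here and for all members below). All 4 FA arrays were lower than every vehicle array. Its log2 difference was -2.43 in wild-type mice (95% CI -3.15 to -1.71, adjusted p = 0.0047) and -2.15 in REDD1 KO mice (95% CI -2.87 to -1.42, adjusted p = 0.00796), a 5.39-fold and a 4.43-fold lower level. Its partner in the ring Mcm2 read 4.89 and 4.94 in wild-type FA, against 6.09 and 7.39 in wild-type vehicle, and 4.72 and 4.67 in REDD1 KO FA, against 6.50 and 6.36 in REDD1 KO vehicle. The groups did not overlap, although the wild-type vehicle arrays were 1.30 log2 units apart, and the FA effect was -1.83 (adjusted p = 0.0163) and -1.73 (adjusted p = 0.0241) in wild-type and REDD1 KO mice.

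Mcm4, another ring subunit, read 7.92 and 7.84 in wild-type FA, against 9.16 and 9.75 in wild-type vehicle, and 8.46 and 8.17 in REDD1 KO FA, against 9.23 and 9.21 in REDD1 KO vehicle. FA arrays were lower throughout, by -1.58 in wild-type mice (95% CI -2.05 to -1.11, adjusted p = 0.00487) and by -0.91 in REDD1 KO mice (95% CI -1.38 to -0.43, adjusted p = 0.0466). For Mcm6 the values were 6.72 and 6.53 in wild-type FA, against 7.48 and 8.73 in wild-type vehicle, and 8.01 and 7.69 in REDD1 KO FA, against 8.83 and 8.40 in REDD1 KO vehicle. Here FA and vehicle did not overlap within a genotype, but both REDD1 KO FA arrays lay above wild-type vehicle array 1. The FA effect on Mcm6 was -1.48 in wild-type mice (adjusted p = 0.0407) and -0.77 in REDD1 KO mice (adjusted p = 0.272), and its other probes gave -1.86 and -1.48 in wild-type mice, both called, and -1.20 and -0.29 in REDD1 KO mice, neither called. Without wild-type vehicle array 2 the wild-type effect on the main Mcm6 probe was -0.86 (adjusted p = 0.108).

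Mcm10, which helps to activate the helicase and ties it to polymerase alpha, was detected on no FA array and on all 4 vehicle arrays. It read 4.77 and 6.24 in wild-type vehicle and 5.11 and 5.72 in REDD1 KO vehicle, and 4.28 to 4.41 on the FA arrays. Over both genotypes its fitted difference was -1.13 (adjusted p = 0.0298), with a bound of at least 1.74-fold lower with FA. The bound takes the higher of the lowest detected signal of an array and the probe's own signal there as the FA level. That call was lost in 9 of 16 alternatives. The other helicase members passed no test with FA: Mcm3 and Mcm7 were detected on 2 and 3 arrays, and Cdc45, Gins3 and Gins4 had log2 differences of -0.52 to -0.15 in wild-type and -0.20 to 0.12 in REDD1 KO mice.

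**Figure D3:**
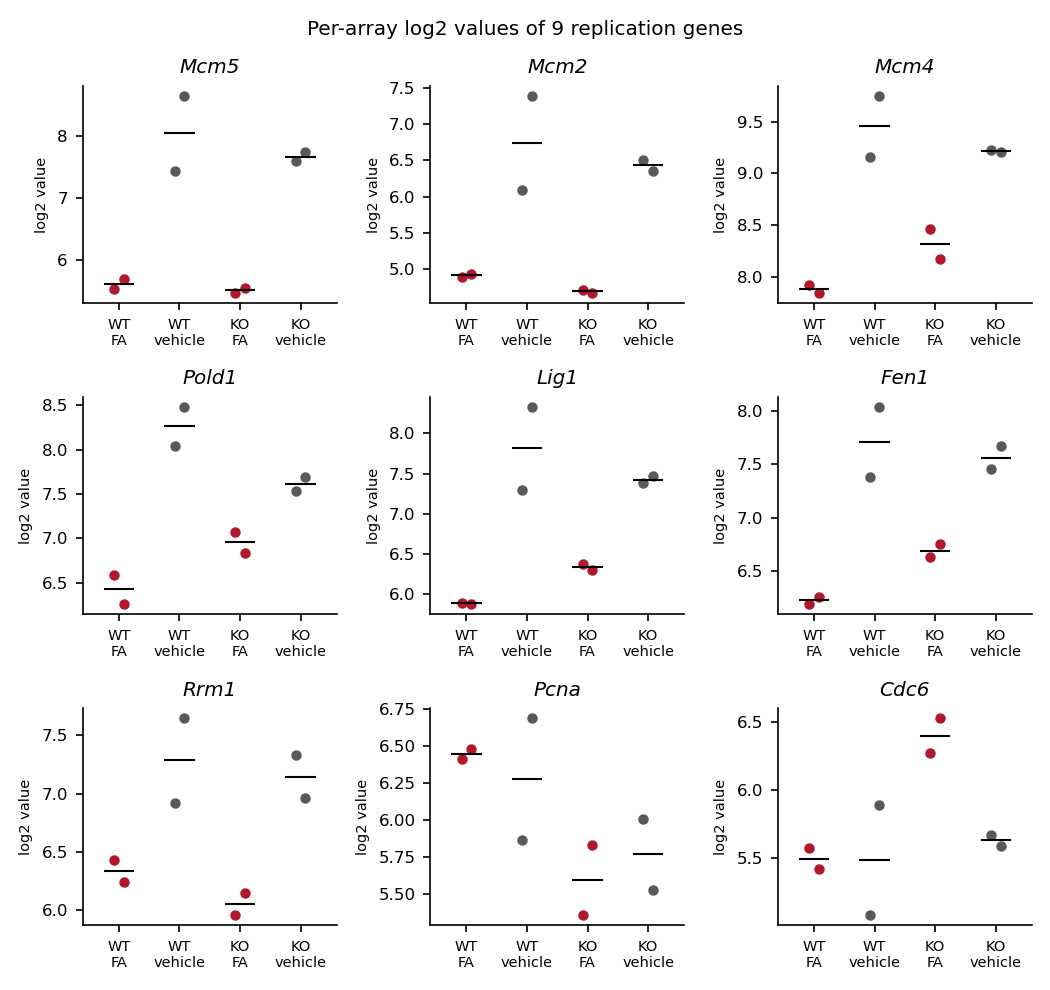
Log2 values (vertical axis, with its own range in each panel) of 9 replication genes by group, FA groups in red and vehicle groups in grey, with points for arrays and a bar for the mean of the 2 arrays. Mcm5, Mcm2, Mcm4, Pold1, Lig1, Fen1 and Rrm1 read lower on FA than on vehicle arrays in both genotypes, whereas Pcna overlaps in both and Cdc6 overlaps in wild-type mice and is higher with FA in REDD1 KO mice.

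Among the licensing factors Cdt1 stood alone. Cdt1, which loads the helicase onto origins together with Cdc6, read 5.99 and 5.98 in wild-type FA, against 7.01 and 7.80 in wild-type vehicle, and 6.14 and 6.57 in REDD1 KO FA, against 7.17 and 7.35 in REDD1 KO vehicle. FA arrays did not overlap with vehicle arrays, with an effect of -1.42 in wild-type mice (adjusted p = 0.015), -0.90 in REDD1 KO mice (adjusted p = 0.0914) and -1.16 over both (adjusted p = 0.00422). Without wild-type vehicle array 2 the wild-type effect was -1.03 (adjusted p = 0.0554). None of the other 5 tested licensing members was called with FA in either genotype. Cdc6, an ATPase that brings Cdt1 and the helicase to the origin, went the other way in REDD1 KO mice, with 6.27 and 6.53 in REDD1 KO FA, against 5.67 and 5.59 in REDD1 KO vehicle, and 5.57 and 5.42 in wild-type FA, against 5.08 and 5.89 in wild-type vehicle. The difference was 0.77 in REDD1 KO mice (95% CI 0.21 to 1.33, adjusted p = 0.124) and 0.01 in wild-type mice (adjusted p = 0.988), so that neither passed the threshold. Cdc6 passed it in REDD1 KO mice when either wild-type vehicle array was left out of the shared fit (0.77, adjusted p = 0.0371). Orc6, a subunit of the origin recognition complex, read 7.67 and 7.90 in wild-type FA, against 7.96 and 8.19 in wild-type vehicle, and 7.82 and 7.68 in REDD1 KO FA, against 8.15 and 8.01 in REDD1 KO vehicle, differences of -0.29 (adjusted p = 0.351) and -0.33 (adjusted p = 0.31). Orc3, Orc4 and Orc5 had differences of -0.66 to -0.33 in wild-type mice and -0.14 to 0.26 in REDD1 KO mice.

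Of 6 tested polymerase and primase genes, 2 fell in wild-type mice (Pold1 and Pola2), none in REDD1 KO mice and 4 over both genotypes (these 2, Pold2 and Pole). Of all tested probes 3.17%, 2.34% and 6.98% were called lower in these comparisons. Pole met the detection filter only through vehicle arrays, so its call is no support for a fall of the polymerase genes. Pold1, the catalytic subunit of polymerase delta, read 6.59 and 6.26 in wild-type FA, against 8.04 and 8.48 in wild-type vehicle, and 7.07 and 6.84 in REDD1 KO FA, against 7.53 and 7.69 in REDD1 KO vehicle. The vehicle arrays stood clear of the FA arrays in both genotypes. The effect was -1.84 in wild-type mice (95% CI -2.30 to -1.39, adjusted p = 0.0026), the lowest adjusted p of any member there, and -0.65 in REDD1 KO mice (95% CI -1.11 to -0.20, adjusted p = 0.113). Its accessory subunit gene Pold2 read 5.72 and 5.69 in wild-type FA, against 6.51 and 6.35 in wild-type vehicle, and 5.85 and 5.31 in REDD1 KO FA, against 6.38 and 6.03 in REDD1 KO vehicle. Pold2 passed the test over both genotypes (-0.68, adjusted p = 0.0182) and in neither alone. Pola2, the regulatory subunit of polymerase alpha, read 5.03 and 4.76 in wild-type FA, against 5.54 and 6.09 in wild-type vehicle, and 5.16 and 5.18 in REDD1 KO FA, against 5.37 and 5.83 in REDD1 KO vehicle. It was called in wild-type mice (-0.92, adjusted p = 0.0475), a call that 13 of 18 alternatives ended, and over both genotypes (-0.67, adjusted p = 0.0256). Pole, the catalytic subunit of polymerase epsilon, was detected on no FA array, where it read 4.24 to 4.50, and on all 4 vehicle arrays (4.80 and 5.72 in wild-type, 4.77 and 5.17 in REDD1 KO mice). Over both genotypes its fitted difference was -0.78 (adjusted p = 0.0329), a call lost in 8 of 16 alternatives, with a bound of at least 1.37-fold lower with FA. The primase subunits Prim1 and Prim2, which lay the RNA primers, passed no test, and Prim1 was detected on both wild-type FA arrays and on no REDD1 KO FA array.

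The clamp and its loader did not move alike. Pcna, the ring that holds polymerases on DNA, read 6.41 and 6.48 in wild-type FA, against 5.87 and 6.69 in wild-type vehicle, and 5.36 and 5.83 in REDD1 KO FA, against 6.01 and 5.53 in REDD1 KO vehicle. FA and vehicle arrays overlapped in both genotypes, and the differences were 0.16 (95% CI -0.48 to 0.81) and -0.17 (95% CI -0.82 to 0.47), so that changes of these sizes in either direction remain within the error. Of the genes for replication factor C, which opens the clamp, Rfc2 and Rfc4 fell in wild-type mice and Rfc5 joined them over both genotypes. Rfc4 read 5.77 and 5.93 in wild-type FA, against 6.96 and 7.24 in wild-type vehicle, and 6.41 and 6.56 in REDD1 KO FA, against 7.30 and 7.02 in REDD1 KO vehicle, with effects of -1.25 (adjusted p = 0.00609) and -0.68 (adjusted p = 0.0679). A further Rfc4 probe, detected on 4 arrays, gave -0.13 and 0.10. Rfc2 read 8.08 and 7.83 in wild-type FA, against 8.75 and 9.04 in wild-type vehicle, and 8.44 and 8.45 in REDD1 KO FA, against 8.93 and 8.81 in REDD1 KO vehicle, with effects of -0.95 (adjusted p = 0.0144) and -0.42 (adjusted p = 0.21). Without wild-type vehicle array 2 the wild-type effect on Rfc2 was -0.80 (adjusted p = 0.0708). Rfc5 read 5.82 and 5.99 in wild-type FA, against 6.23 and 6.52 in wild-type vehicle, and 5.68 and 5.89 in REDD1 KO FA, against 6.31 and 6.30 in REDD1 KO vehicle. Its effects of -0.47 and -0.52 were close to each other, and it was called over both genotypes (-0.50, adjusted p = 0.0265). The large subunit gene Rfc1 was -0.36 over both genotypes (adjusted p = 0.0515).

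RPA coats single-stranded DNA as a trimer, and its subunit genes differed. Rpa3, the small subunit, read 5.93 and 6.09 in wild-type FA, against 6.72 and 6.73 in wild-type vehicle, and 5.80 and 6.24 in REDD1 KO FA, against 6.80 and 6.81 in REDD1 KO vehicle. It was lower by similar amounts in wild-type mice (-0.71, adjusted p = 0.0497) and REDD1 KO mice (-0.79, adjusted p = 0.0435). Each of these calls was lost in 9 of 18 alternatives, whereas the call over both genotypes (-0.75, adjusted p = 0.00584) was lost in none of 17. Rpa1, the large subunit, read 9.74 and 9.50 in wild-type FA, against 10.21 and 10.45 in wild-type vehicle, and 10.19 and 10.19 in REDD1 KO FA, against 10.22 and 10.16 in REDD1 KO vehicle. It was lower in wild-type mice (-0.71, adjusted p = 0.0359), whereas its REDD1 KO arrays overlapped, with a 95% CI of -0.37 to 0.37. Rpa2 passed no test.

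Both genes of Okazaki fragment maturation fell in wild-type mice, where 3.17% of all tested probes were called lower. Lig1, the ligase that seals the fragments, read 5.90 and 5.88 in wild-type FA, against 7.30 and 8.33 in wild-type vehicle, and 6.38 and 6.30 in REDD1 KO FA, against 7.38 and 7.47 in REDD1 KO vehicle. The groups were far apart, with effects of -1.93 in wild-type mice (95% CI -2.56 to -1.29, adjusted p = 0.00682) and -1.08 in REDD1 KO mice (95% CI -1.72 to -0.44, adjusted p = 0.068). A further Lig1 probe, detected on 3 arrays, gave -0.03 and 0.11, so that the probes of this gene disagreed. Fen1, the nuclease that trims the flap ahead of Lig1, read 6.19 and 6.26 in wild-type FA, against 7.38 and 8.04 in wild-type vehicle, and 6.63 and 6.75 in REDD1 KO FA, against 7.46 and 7.67 in REDD1 KO vehicle. It was lower by -1.48 in wild-type mice (adjusted p = 0.00691) and by -0.87 in REDD1 KO mice (adjusted p = 0.0603), and both genes passed over both genotypes (-1.50 and -1.18, adjusted p = 0.0019 and 0.00185).

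Of the nucleotide supply genes, Tk1 and Rrm1 were called lower and Rrm2 and Dut passed no test. Tk1 met the detection filter only through vehicle arrays, so its calls are no support for a fall of these genes. Tk1, the thymidine kinase of the salvage route in S phase, was detected on no FA array, where it read 4.31 to 4.53, and on all 4 vehicle arrays, at 5.46 and 6.44 in wild-type and 5.45 and 5.98 in REDD1 KO mice. The fitted difference was -1.63 in wild-type mice (adjusted p = 0.0161) and -1.29 in REDD1 KO mice (adjusted p = 0.0476). By its bound Tk1 was at least 2.45-fold lower with FA in wild-type mice and at least 2.07-fold lower in REDD1 KO mice. Its other tested probe was at least 1.25-fold lower in wild-type mice and was not detected in REDD1 KO mice, where it was at 0.01. Rrm1, the large subunit of ribonucleotide reductase, read 6.43 and 6.24 in wild-type FA, against 6.92 and 7.65 in wild-type vehicle, and 5.96 and 6.15 in REDD1 KO FA, against 7.33 and 6.96 in REDD1 KO vehicle. FA arrays were below vehicle arrays in both genotypes, with effects of -0.95 (adjusted p = 0.0556) and -1.09 (adjusted p = 0.0423), and -1.02 over both (adjusted p = 0.00621). In wild-type mice the main probe of the small subunit gene Rrm2 overlapped, with 6.56 and 6.05 in FA, against 5.96 and 6.43 in vehicle. It read 5.43 and 5.60 in REDD1 KO FA, against 6.09 and 6.12 in REDD1 KO vehicle. The differences of this probe were 0.12 (adjusted p = 0.809) and -0.59 (adjusted p = 0.183). A further Rrm2 probe, detected on 7 arrays, was lower on FA than on vehicle arrays in both genotypes, without overlap. It gave -0.27 in wild-type mice (adjusted p = 0.467) and -0.53 in REDD1 KO mice (adjusted p = 0.172). The probes of this gene thus disagreed in wild-type mice.

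**Figure D4:**
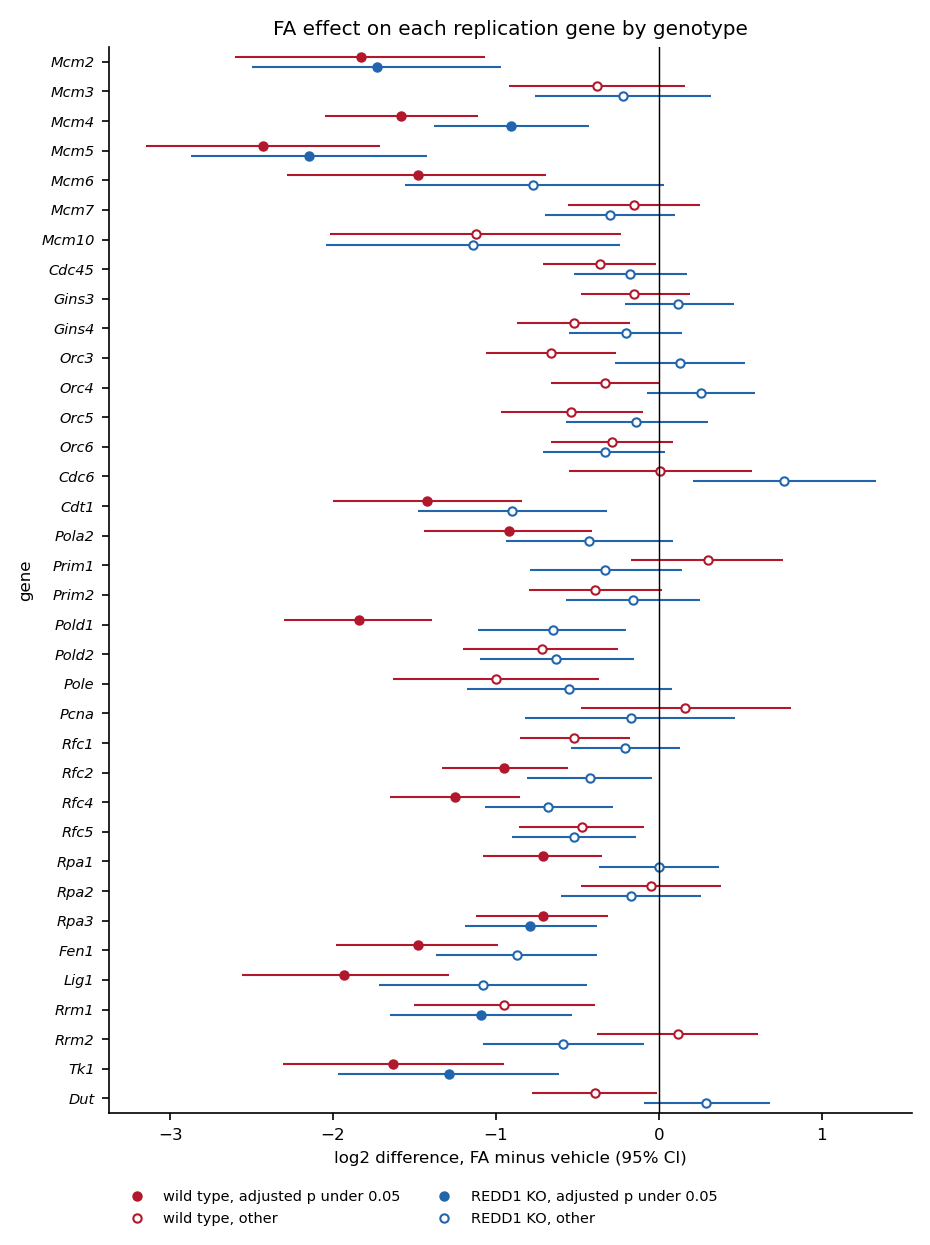
Log2 difference of FA minus vehicle (horizontal axis, with 95% confidence interval from the fit over 8 arrays) for the 36 tested members (rows), in wild-type mice in red and REDD1 KO mice in blue, filled where the adjusted p was under 0.05. Members undetected in a whole group (such as Tk1, Mcm10 and Pole on FA arrays) are drawn at their fitted difference, which is not a bound, and Mcm5 lies farthest left at -2.43 and -2.15.

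Loss of REDD1 did not move any member past the threshold on its own. In vehicle-treated epidermis none of 36 members was called between REDD1 KO and wild-type mice in limma (lowest adjusted p = 0.365, 2 members with an unadjusted p under 0.05), against 0.51% of all tested probes. At that unadjusted level 585 of 13131 tested probes were lower and 549 higher. The members' median was -0.13, and it was 0.13 without wild-type vehicle array 2 and -0.27 without array 1, so that its sign followed a single array. Pold1 had the largest difference, -0.65 (95% CI -1.11 to -0.20). Under FA none was called either (lowest adjusted p = 0.0526), against 7.16% of all tested probes, while 13 members had an unadjusted p under 0.05, 10 of them higher in REDD1 KO FA. Of all 13131 tested probes, 1727 were higher and 1605 lower at that unadjusted level. In this comparison both REDD1 KO FA arrays lay above both wild-type FA arrays for 19 members and below them for 7. The share of all tested probes separated in this way was not counted, so these counts are not read as a result about the members. Orc4 (0.56, adjusted p = 0.0526), Orc3 (0.67, adjusted p = 0.054), Cdc6 (0.90, adjusted p = 0.0594) and Rfc4 (0.64, adjusted p = 0.0618) came closest on the higher side, and Rrm2 (-0.79, adjusted p = 0.0625) on the lower side. The other probes of Orc4, Rfc4 and Rrm2 gave smaller differences of 0.05, 0.26 and -0.41. In the settings that differed from this count, 1 to 5 members were called. Cdc6 was called higher in 6 settings, Mcm6 and Rpa1 in 3 each, Orc3, Orc4 and Gins4 in 2 each and Rfc4 in 1, and Rrm2 was called lower in 2.

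An interaction test, which asks whether FA acted to a different extent in the genotypes, called no member in limma (lowest adjusted p = 0.33), against 0.0305% of all tested probes. Of the 36 members, 26 had a smaller fall or a larger rise in REDD1 KO mice, with a median of 0.31 log2 units. Over all tested probes the median was 0.02, and 48.2% lay below zero, against 27.8% of the members. An unadjusted p under 0.05 was reached by 7 members above zero and 1 below, beside 600 and 702 of all 13131 tested probes. Of the members, 8 lay above the 95th percentile of all tested probes. Among the shown probes Pold1 had the largest interaction, 1.19 (95% CI 0.54 to 1.83). Orc3 (0.79), Rpa1 (0.72, 95% CI 0.19 to 1.24) and Mcm4 (0.67), among others, had the same sign. For Mcm6 the shown probe gave 0.72, and its other probes gave 0.66 and 1.20 (95% CI 0.46 to 1.94 for the latter). The median was 0.58 without wild-type vehicle array 1 and 0.15 without array 2. For Mcm2 and Mcm5 the interaction was 0.10 (95% CI -0.98 to 1.18) and 0.28 (95% CI -0.74 to 1.31), intervals that leave room for a sizeable difference in either direction.

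Across the 36 members, the difference of wild-type vehicle array 2 minus array 1 and the FA effect in REDD1 KO mice, which share no array, correlated at Pearson r = -0.634 and Spearman rho = -0.634, against -0.0446 and -0.049 over all 13131 tested probes. It is a correlation across genes, which are not independent replicates, and it rests on 1 pair of arrays. Mcm2, Mcm5 and Mcm10 were 1.30, 1.20 and 1.46 higher on array 2, whereas Orc3, Orc4, Orc5 and Rfc1 were 0.10 to 0.17 lower there. Pold2 and Rpa3 departed from this order, with a gap of -0.16 and 0.02 and a REDD1 KO effect of -0.63 and -0.79.

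**Figure D5:**
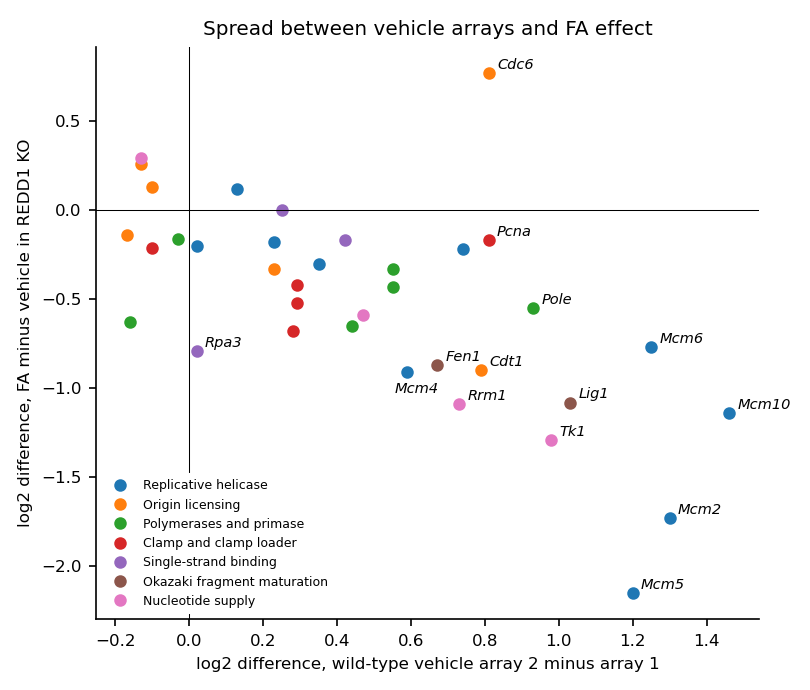
Log2 difference of wild-type vehicle array 2 minus array 1 (horizontal axis) against the log2 difference of FA minus vehicle in REDD1 KO mice (vertical axis), with a point for each of the 36 replication genes, coloured by role. Mcm5, Mcm2 and Mcm10 lie at the lower right, and Cdc6 stands apart at 0.81 and 0.77.

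Other genes of the pathway were counted over both genotypes, where 6.98% of all tested probes were called lower and 6.11% higher. None of 7 licensing partners and firing factors was called in limma, and 1 of 6 fork protection and repair genes fell (Timeless, of the fork protection complex, -1.29, adjusted p = 0.00331). Of 8 polymerase accessory and RNase H2 genes 1 fell (Atad5, which unloads PCNA, -0.93, adjusted p = 0.00755), and of 7 genes of chromatin assembly and methylation behind the fork 3 fell: Uhrf1, which brings Dnmt1 to newly copied DNA (-2.63, adjusted p = 0.00077), Dnmt1, the maintenance methyltransferase (-0.92, adjusted p = 0.016) and Chaf1a, a histone chaperone subunit (-0.79, adjusted p = 0.0281). Among 15 other nucleotide supply genes 3 fell, among them Dctpp1 (-0.55, adjusted p = 0.0227) and Dtymk (-0.46, adjusted p = 0.0451), and 1 rose (Shmt1, 0.49, adjusted p = 0.0214). Of 21 G1/S regulators 6 fell and 2 rose, among them E2f1, Ccnd1 for cyclin D1 (-1.65, adjusted p = 0.00147) and Cdkn1c for the CDK inhibitor p57 (1.54, adjusted p = 0.0012). E2f1, an activator of S phase genes, was lower by -1.62 in wild-type mice (adjusted p = 0.00366). In REDD1 KO mice it was undetected on both FA arrays, with a fitted difference of -1.38 (adjusted p = 0.00746) and a bound of at least 2.38-fold lower. Of 13 mitosis genes 1 was called lower, Ttk, with a fitted difference of -0.58 (adjusted p = 0.031) and a bound of at least 1.25-fold. Ttk was detected on no FA array, so it met the detection filter only through vehicle arrays, and its call is no support for a fall of the mitosis genes.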

How the data were processed

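RNA from epidermis was hybridised to Illumina MouseRef-8 v2.0 BeadChips. The authors deposited probe intensities without background subtraction, a detection p-value for each probe and array, and log2 values that they had background corrected and quantile normalized with neqc of limma, using control probes and an offset of 16. Values rebuilt from the deposited intensities differed from the deposited log2 values by at most 5e-09. Probes were named through the platform annotation, updated to RefSeq symbols: 23978 of 25697 probes had 1 symbol and 1719 had none, and 2 broken lines were left out.

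The deposited log2 values of the 13131 probes with a detection p under 0.05 on at least 2 of 8 arrays were fitted with limma 3.58.1 (R 4.3.3) as 4 groups of 2 arrays (residual df 4, prior df 5.08), and p-values were adjusted by Benjamini-Hochberg over all tested probes. An adjusted p under 0.05 was called. Each p-value tests a difference of group means against the spread between the arrays of a group. That spread was pooled over the 4 groups and moderated across all tested probes. For a gene with several probes the one with the highest mean signal was shown, and others are given where they disagree. A gene undetected on both arrays of a group has only a bound there. Its fold takes, per array, the higher of the lowest signal among detected probes and the probe's own signal. The adjusted p of such a gene tests the fitted difference and not the bound. The number of arrays limits the precision.

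The members and the other gene lists were chosen with earlier results of these data known. Values per array are given for members called in any comparison and for the highest-signal member of each role, and up to 3 called genes are named per pathway list. Other members named with values (such as Pcna, Cdc6, Rrm2, Orc3 and Orc4) were chosen after their values were seen. The fit was tested on simulated data. Alternatives were median centring, log2 intensities without background correction, a larger offset (50), rebuilt values, other probe filters, only the 4 arrays compared, trended and robust variance moderation, array weights, the replicate number as a block, other probes and leaving out each array.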

Additional observations from a re-analysis of the deposited data

Results flagged for a closer look

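In 3 members both FA arrays lay on opposite sides of both vehicle arrays in the 2 genotypes. The share of all tested probes with this order was not counted, so the count is not read as a result about the members. Gins3, a subunit of the GINS complex, had a difference of FA minus vehicle of 0.12 in REDD1 KO mice and -0.15 in wild-type mice, an interaction of 0.27 that did not pass the test (adjusted p = 0.698). Orc4, of the origin recognition complex, read 5.30 and 5.33 in REDD1 KO FA, against 5.06 and 5.04 in REDD1 KO vehicle, and 4.81 and 4.71 in wild-type FA, against 5.15 and 5.02 in wild-type vehicle, an interaction of 0.59 (adjusted p = 0.424), while its other probe gave 0.04. Dut, which removes dUTP, read 4.78 and 4.91 in REDD1 KO FA, against 4.56 and 4.55 in REDD1 KO vehicle, and 4.41 and 4.76 in wild-type FA, against 5.04 and 4.91 in wild-type vehicle, a fitted interaction of 0.69 (adjusted p = 0.412). Dut was detected on neither REDD1 KO vehicle array, so its level there is only a bound (at least 1.17-fold higher with FA), and neither the interaction nor the order of those arrays is measured.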

How the results depend on the processing

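The count of 14 members lower in wild-type mice was 9, of 40 members, without a probe filter, and 3 to 15 with 1 array left out. The count of 6 in REDD1 KO mice was 1 without background correction, 3 with an offset of 50, 0 without a probe filter, and 0 to 9 with 1 array left out. The count of 0 between REDD1 KO and wild-type mice under FA was 2 without background correction, 2 with an offset of 50, 5 among probes detected on all 8 arrays, 1 without a probe filter, 2 with only the 4 arrays compared, 4 with trended and robust moderation, 2 with array weights and 0 to 2 with 1 array left out. The cause of these shifts was not tested. Median centring split the all-probe calls over both genotypes into 1318 lower and 520 higher, beside 916 and 802, and moved their median to -0.09, with 22 members called in place of 18. The sign turned for the other Tk1 probe in REDD1 KO mice (0.01) and for the other Lig1 probe over both genotypes (0.04). Mcm5 and Pold1 in wild-type mice kept their call in all 18 alternatives that gave a value. With the replicate number as a block, 10 members were called lower in wild-type mice, 5 in REDD1 KO mice and 18 over both genotypes, and none in the other 3 comparisons. The block ended the calls of Mcm6, Pola2, Rpa1 and Rpa3 in wild-type mice and of Mcm4 and Rrm1 in REDD1 KO mice, and added Fen1 in REDD1 KO mice. Arrays with the same number correlated at -0.107 to 0.252 in their deviations from the group means, above 0.1 in 3 of 6 pairs of groups, and no label ties them, so the numbers were not taken as pairs. With 2 arrays a group, small changes were not detectable.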

Other observations

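The 13 tested mitosis genes had another order over the vehicle arrays than the replication genes. Their mean log2 value was 5.63 and 6.58 in REDD1 KO vehicle arrays 1 and 2, and 5.49 and 6.51 in wild-type vehicle arrays 1 and 2, with all 13 higher on wild-type vehicle array 2. The 36 replication genes deviated from their own means by an average of 0.28 and 0.25 on the REDD1 KO vehicle arrays, and by 0.15 and 0.62 on the wild-type vehicle arrays.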
